A study of Mus musculus with 9 samples.

Results

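Rab proteins are small GTPases that mark the membranes of a cell. In the GTP-bound state each Rab recruits effectors that move, tether or fuse vesicles at 1 kind of compartment. Exchange factors (GEFs) load the GTP, GTPase-activating proteins (GAPs) trigger its hydrolysis, and GDP dissociation inhibitors carry the inactive protein back through the cytosol. In mouse oocytes, vesicles carrying Rab11a act as nodes of the cytoplasmic actin network that positions the spindle, and Rab3a and Rab27a have been linked to cortical granules, the secretory vesicles released at fertilisation. The Rab genes were taken as every row whose symbol is Rab, a number and at most 1 letter and 1 further digit, which gave 58 of the 24228 genes of the table with a usable symbol.

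RNA levels were measured in mouse fully grown oocytes at the germinal vesicle stage, before meiosis resumes, taken from large antral follicles. The WT group is wild type. In the MG group Mtor, the kinase of the growth-regulating mTOR complexes, was targeted by Gdf9-Cre, and in the MZ group by Zp3-Cre. Both drivers are oocyte promoters, and Gdf9-Cre is active earlier in follicle growth than Zp3-Cre. Each group had 3 libraries, all 9 labelled strain C57BL/6, from females given 5 IU of PMSG (a gonadotropin that drives follicle growth) 46 h before collection. The age is 23 days in the series design while the labels of the samples give 6 months, which was left unresolved. Nothing says that the libraries of a group came from separate animals, so the tests measure only the spread between libraries, which may be technical. Whether the WT females carried floxed alleles or Cre is not stated in these sources.

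All 58 Rab genes were found in GENCODE M21 (GRCm38), the gene listed as Rab1 being Rab1a there. The sequence feature that holds the family on membranes is visible in the genes themselves. Rab proteins are anchored by lipid groups attached to cysteines near the carboxyl end. Each of the 58 coding sequences had a cysteine codon (tgt or tgc) among its last 4 codons, against 10.2% of the 20375 genes of the table with a complete coding sequence. In 20 Rab genes the last 3 codons read cysteine, any codon, cysteine. In 14 the last 2 codons were both cysteine, and in 15 the last cysteine stood 4 codons from the end, in 6 of them directly after another cysteine. A cysteine pair was followed by 2 other codons in 6 genes and by 1 in the remaining 3. The last 9 codons and the stop codon are shown, 5′ to 3′, for genes on which the results turn, with cysteine codons in capitals.
Rab7: aaggcctccgcagaaagcTGCagtTGTtga
Rab38: gtcagcTGCtctggcTGTgccaaatcctag
Rab11a: ccaaaggtgcagTGCTGTcagaacatctaa
Rab14: caaccccagagagaaggcTGTggcTGCtag
Rab5a: ccagccagaagccagTGTTGTagtaactga
Rab5c: gccagccggagccagTGCTGCagcaactga
Rab3b: cctctgctgcagcagaacTGCtctTGTtag
Rab33b: accaagcctgcggtgactTGCtggTGCtga
The Rab5a and Rab5c lines end in the same arrangement, a cysteine pair followed by 2 codons, while their mean RNA levels in MG stood on opposite sides of the WT mean (given with the early endosome genes).

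Transcription factors of the lysosome programme, which act downstream of mTOR signalling in other cells, are known to bind GTCACGTGAC, a palindrome that contains the E-box CACGTG. The 250 bases before each start site in RefSeq (GRCm38.p6) were searched for both, which read the same on either strand. Of 48 Rab genes with a promoter in the table, CACGTG was found for 5 (8.33% of their 60 promoters, against 6.02% of all 32851). The longer word was found for 2, Rab5a and Rab21 (3.33% against 0.24%). Their windows are shown because both genes encode early endosome Rabs that are described below, with the 10-base word in capitals.
Rab5a, chr17:53478984-53479233, plus strand: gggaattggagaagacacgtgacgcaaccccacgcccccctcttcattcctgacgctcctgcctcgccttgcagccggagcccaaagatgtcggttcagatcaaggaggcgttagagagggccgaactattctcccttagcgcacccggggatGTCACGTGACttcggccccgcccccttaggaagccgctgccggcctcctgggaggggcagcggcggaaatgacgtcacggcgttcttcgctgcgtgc
Rab21, chr10:115315592-115315841, minus strand: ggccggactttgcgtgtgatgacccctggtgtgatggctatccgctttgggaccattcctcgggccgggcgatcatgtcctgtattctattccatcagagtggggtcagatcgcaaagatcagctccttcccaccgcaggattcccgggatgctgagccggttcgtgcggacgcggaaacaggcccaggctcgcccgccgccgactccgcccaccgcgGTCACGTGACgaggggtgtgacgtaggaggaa
The word lies 97 to 88 bases before the start site in Rab5a and 32 to 23 bases before it in Rab21. A match is a description of the letters and shows no binding.

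Levels are FPKM, the authors' fragment values normalised for transcript length and library size. FPKM above 0 was listed for 10670 to 12097 genes per library. A single fragment in a 2 kb transcript was worth 0.661 FPKM in MG 3 to 1.18 FPKM in MZ 1, read from the steps between low values, which leaves genes of low FPKM with very few fragments each. The FPKM of a library summed to 652537 ± 67110 in WT, 498936 ± 64355 in MG and 670216 ± 10778 in MZ (SD, n = 3 each), lowest in MG 3 at 428329. Every MG sum lay below every WT and MZ sum, so scaling the libraries to the same FPKM sum raises MG against both. A gene with MG above all values of another group as deposited therefore stays above when scaled, which is no separate result. The 11 oocyte markers summed to 21800 to 26060 FPKM in WT, 11570 to 26480 in MG and 27130 to 28230 in MZ. The 16 granulosa cell markers summed to 278 to 371, 190 to 305 and 234 to 297 FPKM in the same order, with Foxl2, Lhcgr and Amhr2 listed at 0 in all 9 libraries. Serpine2 carried most of this sum, with 257, 269 and 337 FPKM in WT, 272, 211 and 151 in MG, beside 205, 272 and 227 in MZ. Kitl had 0.350, 1.15 and 0.398 FPKM in WT, 4.05, 2.51 and 6.36 in MG, set against 3.26, 1.82 and 3.55 in MZ, above WT in both groups without overlap as deposited. Nr5a2 had 1.08, 0.593 and 1.84 FPKM in WT, 4.37, 2.90 and 5.25 in MG, while MZ had 4.39, 3.21 and 0.996, with MG above WT as deposited. Kitl rested on about 5, 45 and 25 fragments in WT, MG and MZ, and Nr5a2 on about 7, 35 and 21. Cyp19a1 was lower, with means of 22.6 FPKM in WT, 13.1 in MG and 14.6 in MZ, on about 75, 59 and 58 fragments. As deposited its MZ values lay below all WT values, while MG and WT overlapped. Fshr had means of 2.25, 1.27 and 0.337 FPKM, with overlap. Against WT, 4 of the 7 tested granulosa markers were positive and 3 negative, in MG and in MZ alike. The part of these markers in the results was not tested. The 10 markers of theca, stroma and blood summed to 20.2 to 78.7 FPKM. Mtor had 2.95 to 3.33 FPKM in WT, 4.64 to 6.00 in MG and 4.39 to 6.55 in MZ. A whole-gene FPKM counts exons outside the deleted part and does not check the deletion, so MG and MZ stand for the libraries labelled so.

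The Rab repertoire of the oocyte was broad but dominated by few genes. Of the 58 genes, 4 had a mean over the 9 libraries of at least 100 FPKM, 19 of 10 to 100, 13 of 1 to 10, and 18 above 0 but under 1. Rab19, Rab20, Rab26 and Rab42 were listed at 0 in every library. A level above 0 in all 9 libraries was found for 30 genes, and each library listed 39 to 45 Rab genes above 0. Rab7 alone supplied 37.0% ± 1.68 of the summed Rab FPKM in WT (SD, n = 3), and it exceeded 98.8% to 99.1% of tested genes in each library. Rab38 supplied 15.7%, Rab11a 9.19% and Rab14 7.25% of the WT sum. With 1 member of a set far above its copies in WT, the Rab11 set was 97.9% Rab11a, the Rab2 set 92.4% Rab2a, the Rab5 set 90.9% Rab5c, the Rab32 and Rab38 pair 88.2% Rab38, and the Rab3 set 62.5% Rab3d.

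**Figure D1:**
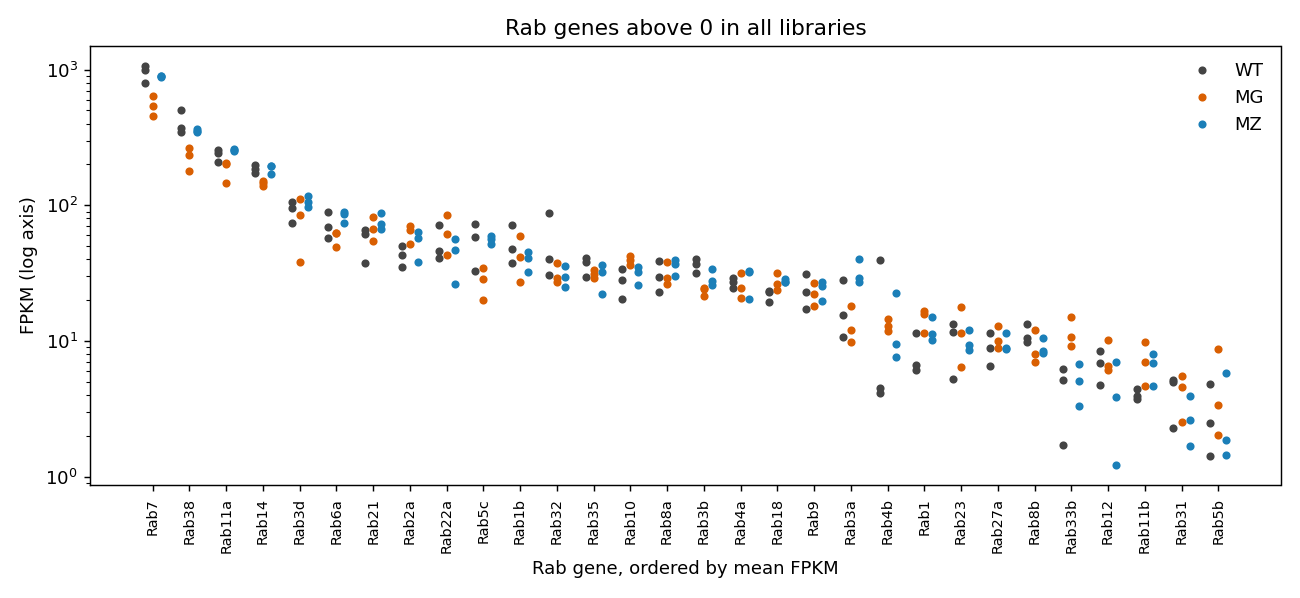
FPKM (log axis) of the 30 Rab genes above 0 in all libraries, ordered by mean; each point is 1 library of WT, MG or MZ (n = 3 each). Rab7, Rab38, Rab11a and Rab14 stand at the top, where the MG points lie below the WT points; after scaling the libraries to the same FPKM sum the Rab11a and Rab14 points of the 2 groups overlap.

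No Rab gene passed the test in any comparison. The test was limma on log2(FPKM + 1) with Benjamini-Hochberg adjustment over 10801 genes, at an adjusted p under 0.05, and 41 Rab genes passed the filter of at least 1 FPKM in at least 3 libraries. Of these, 7 (Rab2b, Rab13, Rab24, Rab25, Rab28, Rab40b and Rab43) would have failed the filter without the libraries of 1 group. For MG against WT 0 of 41 Rab genes were called, where 0.343% of all tested genes were. For MZ against WT 0 of 41 were called, against 0.037% of all genes, and for MG against MZ 0 of 41, against 0.13%. At background shares this small a count of 0 in 41 is near what the whole table shows. At an unadjusted p under 0.05 by limma there were 13 of 41 Rab genes for MG against WT (31.7%, against 17.7% of all genes), 2 for MZ against WT (4.88%, against 6.3%) and 11 for MG against MZ (26.8%, against 17.6%). The 13 were 7 with a positive difference (8.43% of all genes) and 6 with a negative one (9.31% of all genes). After scaling to the same FPKM sum the count was again 13 (31.7%, against 21.5% of all genes), with 11 positive and 2 negative. Of the 13, 2 and 11 genes as deposited, 2, 1 and 3 were among the 7 that passed the filter only with 1 group. The first count was 8 of 40 without MG 1 (20%, against 18% of all genes). For MG against MZ it was 8 of 40 without MG 1 (20%, against 19.6%), 7 of 41 without MG 3 (17.1%, against 13.4%), 7 without MZ 1 (17.1%, against 13.6%) and 5 with quantile normalization (12.2%, against 16.2%).

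The members differed in direction among themselves, and their direction in MG went with their level. All 4 Rab genes of at least 100 FPKM were negative in MG against WT (median log2 fold change -0.58), as were 87.7% of the 847 genes of that level in the whole table (median -0.44), but Rab11a and Rab14 turned positive when the libraries were scaled to the same FPKM sum. Of 10 Rab genes between 2 and 10 FPKM, 9 were positive (median 0.55), among them Rab25, which passed the filter only through MG. The 3980 genes of that level had a median of 0.20, with 37.7% negative. Under 2 FPKM 5 Rab genes were positive and 3 negative, where 36.2% of the 2388 genes of that level were negative. Of the positive ones, Rab24, Rab28 and Rab43 would have failed the filter without MG, and Rab43 also without WT. Of the negative ones, Rab2b and Rab40b would have failed it without WT. The signs of these genes lean on the filter and are no separate result. Between 10 and 100 FPKM the 19 Rab genes split as deposited into 10 negative and 9 positive (median -0.07, against -0.06 for all genes of that level). In MZ against WT the Rab genes of at least 100 FPKM had a median of -0.03. Over all 41 the median was 0.16 for MG and 0.12 for MZ, each against WT, and 0.07 for MG against MZ, beside 0.04, 0.01 and 0.04 for all tested genes. Positive and negative members numbered 23 and 18 for MG against WT as deposited, and 34 and 7 (median 0.51) when scaled to the same FPKM sum, where the median of all genes was 0.36. For MG against MZ the split went from 23 and 18 to 32 and 9, and for MZ against WT from 27 and 14 to 26 and 15. Each pair of these comparisons shares 1 group of libraries.

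**Figure D2:**
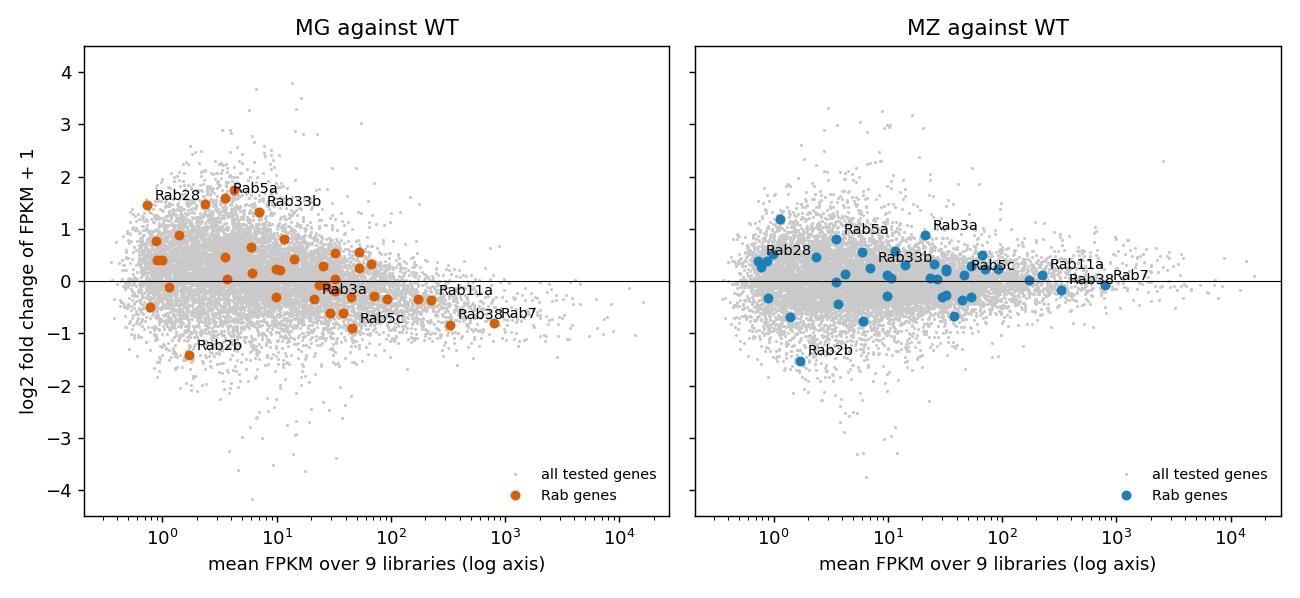
Log2 fold change of FPKM + 1 (vertical axis) against mean FPKM over 9 libraries (log axis), for MG (left) and MZ (right) against WT; grey points are all tested genes, except 1 gene outside the plotted range, and coloured points the 41 tested Rab genes. In MG the Rab genes of at least 100 FPKM lie below 0 (median -0.58) with most genes of that level. All but 1 of the Rab genes between 2 and 10 FPKM lie above 0, where 37.7% of all genes of that level lie below it. Scaling to the same FPKM sum raises the median of all genes to 0.36 and puts Rab11a and Rab14 just above 0.

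Genes of the late endosome and lysosome included the most abundant Rab gene and, in both comparisons of MG, the smallest p-value among the Rab genes. Rab7 (chromosome 6, 87999106 to 88045270, minus strand) directs late endosomes to lysosomes and autophagosomes to their fusion with them. Its FPKM was 1063, 790 and 995 in the WT libraries, 642, 537 and 458 in MG, beside 901, 880 and 897 in MZ. Every MG value lay below every WT and every MZ value, as deposited and after scaling to the same FPKM sum, while WT and MZ overlapped. Its log2 fold change was -0.80 ± 0.18 (SE) in MG against WT (adjusted p = 0.083 by limma) and -0.72 ± 0.18 for MG against MZ (adjusted p = 0.085 by limma), so it did not pass. Scaled to the same FPKM sum these differences were -0.41 and -0.29, where the median of all genes moved to 0.36 and 0.39, so that relative to that median Rab7 stood at -0.77 and -0.68. As deposited, the 847 genes of at least 100 FPKM, the level of Rab7 and Rab38, had a median of -0.44 in both comparisons. Of these genes 87.7% and 81.6% were negative. Quantile normalization, which gives every library the same distribution of values, left -0.33 and -0.20 for Rab7. Its values rest on about 2803 WT, 1965 MG and 3106 MZ fragments over 3 libraries each. Gm5577 overlaps Rab7 on the other strand, and the sources used here do not give how strand was counted.

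Rab38 (chromosome 7, 88430273 to 88491572, plus strand), known for the biogenesis of melanosomes and other lysosome-related organelles, had 502, 344 and 368 FPKM in WT, 263, 237 and 179 in MG, set against 363, 349 and 354 in MZ. The MG values again lay below all WT and MZ values under either scaling. For Rab38 MZ and WT overlapped as deposited, but when scaled all MZ values lay below all WT values (log2 difference -0.21). Its log2 fold change was -0.83 ± 0.20 in MG against WT (adjusted p = 0.095 by limma) and -0.67 ± 0.20 for MG against MZ (adjusted p = 0.117 by limma), moving to -0.44 and -0.23 when scaled to the same FPKM sum and to -0.39 and -0.20 with quantile normalization. Rab32, its close relative, had 30.9, 40.6 and 87.5 FPKM in WT, 27.4, 29.4 and 37.9 in MG, while MZ had 29.8, 25.2 and 36.0. The high WT mean of Rab32 came from WT 3, and its log2 fold change for MZ against WT was -0.66 ± 0.34 (limma adjusted p = 0.789), or -0.23 without WT 3. Rab29, a Golgi and lysosome Rab tied to the kinase LRRK2, had 2.02, 4.40 and 0 FPKM in WT, 11.7, 5.38 and 6.47 in MG, beside 2.31, 0 and 5.56 in MZ, about 4, 16 and 5 fragments for the 3 groups. Rab24, linked to autophagy, had 1.15, 0 and 2.61 FPKM in WT, 2.66, 3.07 and 2.23 in MG, set against 0, 0.852 and 0 in MZ, about 3, 8 and 1 fragments. For MG against MZ Rab29 had a log2 fold change of 1.60 ± 0.74 (limma adjusted p = 0.292), or 0.86 without MZ 2. Rab24 passed the filter only through MG, so no test is given for it. Rab24 overlaps Prelid1 on the other strand.

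**Figure D3:**
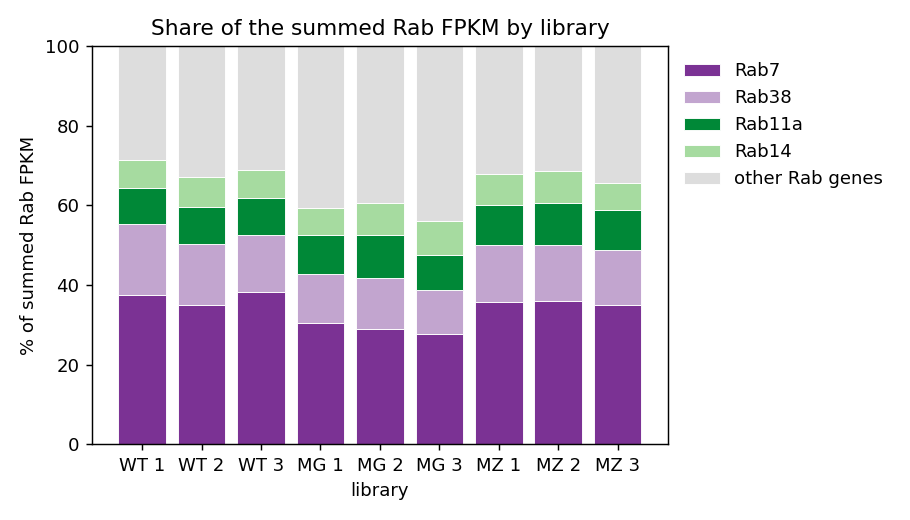
Share of the summed Rab FPKM (vertical axis, %) held by Rab7, Rab38, Rab11a, Rab14 and the other Rab genes in each of the 9 libraries. The 4 genes together hold 55.9% to 60.6% in MG and 65.5% to 71.3% in WT and MZ, and the shares are the same under any scaling of a library.

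Because shares within a library do not move with its scaling, they were set beside the FPKM. Summed over all 58 genes the Rab FPKM was 2561 ± 293 in WT, 1872 ± 232 in MG and 2512 ± 54.2 in MZ (SD, n = 3 each), or 0.392%, 0.376% and 0.375% of all FPKM. Rab7 held 29.0% ± 1.31 of the Rab sum in MG and 35.5% ± 0.42 in MZ, beside 37.0% ± 1.68 in WT. The late endosome and lysosome genes together held 55.9% ± 2.36 in WT, 44.6% ± 1.52 in MG and 52.0% ± 0.35 in MZ. The MG share lay below all WT and MZ libraries, and the MZ share below all WT libraries. For the recycling, early endosome, secretion and endoplasmic reticulum and Golgi genes the MG shares lay above all WT libraries, and for secretion the MZ share did as well. Endoplasmic reticulum and Golgi genes had 8.20% in WT, 11.9% in MG and 8.97% in MZ, early endosome genes 6.73%, 9.37% and 7.31%, secretion genes 9.03%, 11.4% and 10.4%, and recycling genes 19.7%, 21.9% and 20.9%. The shares sum to 100%, so a lower Rab7 share raises the others, and they were not tested.

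Recycling endosome genes were led by Rab11a and Rab14. Rab11a (chromosome 9, 64715299 to 64737758, minus strand), the Rab of the oocyte's actin-organising vesicles, had 255, 207 and 244 FPKM in WT, 204, 200 and 146 in MG, while MZ had 251, 259 and 254. As deposited every MG value lay below every WT and MZ value, but scaled to the same FPKM sum the groups overlapped and the log2 difference of MG from WT was 0.02. Rab14 (chromosome 2, 35180205 to 35201120, minus strand), which moves cargo between endosomes and the Golgi, had the same order of groups, MG lowest as deposited, with 199, 172 and 184 FPKM in WT, 146, 152 and 138 in MG, beside 196, 196 and 170 in MZ, and a scaled difference of 0.05 with overlapping groups. Rab11b, the second Rab11 gene, was far lower, with 3.76, 4.47 and 3.91 FPKM in WT, 9.77, 7.002 and 4.67 in MG, set against 6.93, 4.66 and 8.09 in MZ. All MG and all MZ values of Rab11b lay above the WT values, although only by 0.202 FPKM for MG 3 and 0.188 FPKM for MZ 2, and after scaling MZ and WT overlapped. Within the Rab11 set the Rab11a share was 97.9% ± 0.59 in WT, 94.6% ± 0.39 in MG and 96.4% ± 1.18 in MZ. Rab35, a Rab of fast recycling, had 40.6, 38.1 and 29.6 FPKM in WT, 33.5, 31.1 and 29.4 in MG, while MZ had 32.5, 22.2 and 36.5, with overlap throughout as deposited, and MG above MZ without overlap when scaled to the same FPKM sum.

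In the early endosome set the abundant and the scarce Rab5 genes differed in direction. Rab5 proteins drive the fusion of early endosomes, and Rab5c was the main copy here. Rab5c (chromosome 11, 100715009 to 100738215, minus strand) had 72.2, 32.8 and 58.0 FPKM in WT, 34.7, 28.7 and 20.1 in MG, beside 56.5, 51.9 and 59.4 in MZ. WT 2 reached into the MG range, while MG and MZ did not overlap under either scaling. Its log2 fold change was -0.90 ± 0.30 in MG against WT (adjusted p = 0.158 by limma) and -1.01 ± 0.30 for MG against MZ (adjusted p = 0.113 by limma), or -0.52 and -0.59 scaled to the same FPKM sum. Rab5a (chromosome 17, 53479234 to 53507680, plus strand), whose promoter is printed above, had 0, 1.91 and 2.97 FPKM in WT, 7.06, 5.46 and 5.08 in MG, set against 5.06, 1.94 and 2.41 in MZ. All MG values of Rab5a lay above all WT and MZ values as deposited, by only 0.025 FPKM between MG 3 and MZ 1, an order that scaling cannot undo. For MG against WT Rab5a had a log2 fold change of 1.59 ± 0.52 (limma adjusted p = 0.160), or 1.002 without WT 1. It rests on about 7 fragments in WT and 32 in MG, and Pp2d1 overlaps the gene on the other strand.

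**Figure D4:**
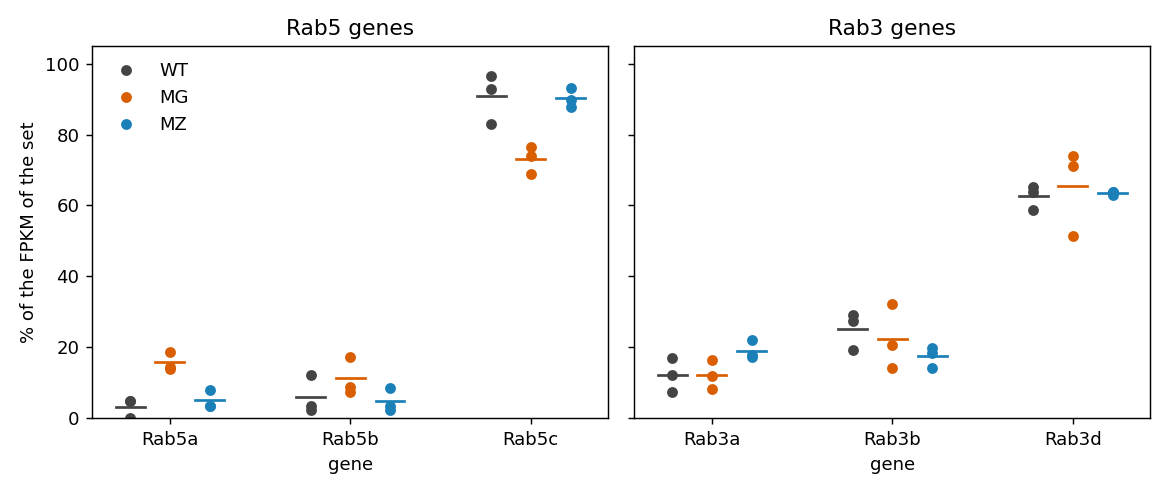
Share (vertical axis, %) of the FPKM of the Rab5 set and of the Rab3 set held by each gene; each point is 1 library and each bar the mean of 3. The Rab5c share is 68.8% to 76.5% in MG and 83.0% to 96.6% in WT and MZ, with the Rab5a share above all WT and MZ libraries in MG; the Rab3 shares of MG and WT overlap, and Rab3c, at most 0.171%, is not drawn.

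The Rab5 set shows the same contrast as shares. Rab5c held 90.9% ± 7.06 of the set in WT, 73.0% ± 3.95 in MG and 90.2% ± 2.69 in MZ (SD, n = 3 each), and Rab5a held 3.20% ± 2.77, 15.7% ± 2.56 and 5.03% ± 2.59. The MG shares of both genes overlapped neither WT nor MZ. Rab21, which carries integrins through early endosomes and whose promoter also holds the 10-base word, had 61.4, 65.9 and 37.5 FPKM in WT, 54.6, 67.4 and 82.3 in MG, while MZ had 87.3, 67.4 and 72.9. The MZ values of Rab21 lay above the WT values as deposited and overlapped them when scaled, with a log2 fold change of 0.49 ± 0.25 (limma adjusted p = 0.789), or 0.24 without WT 3.

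Of the 9 tested secretion genes 4 were positive and 5 negative in MG against WT as deposited, and 8 and 1 when scaled to the same FPKM sum. Rab3 proteins act in regulated exocytosis. Rab3d, the most abundant of them, had 106, 73.9 and 95.4 FPKM in WT, 112, 84.6 and 38.4 in MG, beside 97.0, 106 and 117 in MZ, with the lowest value in MG 3. Rab3b had 31.7, 36.7 and 40.0 FPKM in WT, 21.4, 24.6 and 24.0 in MG, set against 27.7, 33.7 and 25.9 in MZ. As deposited the MG values of Rab3b lay below all WT and MZ values, and after scaling they overlapped both. Its log2 fold change for MG against WT was -0.61 ± 0.20 (limma adjusted p = 0.169), or -0.23 scaled to the same FPKM sum, and for MZ against WT it was -0.30 ± 0.20 (limma adjusted p = 0.847). The gene 8030443G20Rik overlaps it on the other strand.

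Rab3a, linked to cortical granules, stood higher in MZ than in MG. It had 28.3, 15.4 and 10.7 FPKM in WT, 18.2, 9.79 and 12.1 in MG, while MZ had 27.1, 29.1 and 40.5. MZ lay above MG without overlap under either scaling, and WT 1 reached into the MZ range as deposited. The log2 fold change was -1.23 ± 0.36 in MG against MZ (adjusted p = 0.113 by limma) and 0.88 ± 0.36 for MZ against WT (adjusted p by limma = 0.744), and both missed the threshold. Without WT 3 the difference of MZ from WT was 0.58, and scaled to the same FPKM sum that of MG from MZ was -0.82. Mpv17l2 overlaps Rab3a on the other strand. Rab27a, another Rab of cortical granules, had 6.56, 11.5 and 8.94 FPKM in WT, 12.9, 9.96 and 8.92 in MG, beside 11.4, 8.78 and 8.94 in MZ, with all groups overlapping as deposited, and MG above MZ without overlap when scaled to the same FPKM sum.

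Rab10, known for the delivery of vesicles to the plasma membrane, had 28.1, 20.3 and 33.8 FPKM in WT, 39.6, 36.1 and 42.2 in MG, set against 35.2, 25.9 and 32.1 in MZ. Its MG values lay above all WT and MZ values as deposited, an order that scaling cannot undo, and Rab10os overlaps the gene on the other strand. Rab8a, a Rab of polarised secretion and cilia, had 38.9, 23.0 and 29.8 FPKM in WT, 29.2, 26.2 and 38.0 in MG, while MZ had 30.4, 39.8 and 36.8, with overlap in every comparison. Rab12, which takes part in sorting to lysosomes, had 8.43, 6.92 and 4.78 FPKM in WT, 6.09, 6.58 and 10.2 in MG, beside 1.22, 7.03 and 3.88 in MZ. Its log2 fold change for MZ against WT was -0.77 ± 0.46 (limma adjusted p = 0.818) with overlapping groups, or -0.27 without MZ 1 and -1.20 without MZ 2. Rab13, a Rab of cell junctions, rested on about 1, 1 and 5 fragments in the 3 groups, with 1.64, 0 and 0 FPKM in WT, 0, 0 and 1.05 in MG, set against 5.06, 1.08 and 1.51 in MZ. It passed the filter only through MZ, so no test is given.

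Of the 9 tested genes of the endoplasmic reticulum and Golgi, 6 were positive in MG against WT as deposited and 8 when scaled to the same FPKM sum. Rab6a, a Golgi Rab, was the highest, with 89.7, 69.2 and 57.6 FPKM in WT, 62.9, 63.0 and 49.3 in MG, while MZ had 89.8, 86.4 and 74.7. Its MG values lay below all MZ values as deposited, but the 2 groups overlapped after scaling. Rab2a, which acts between the endoplasmic reticulum and the Golgi, had 43.0, 50.5 and 34.9 FPKM in WT, 66.3, 52.1 and 70.8 in MG, beside 64.0, 38.0 and 57.6 in MZ. All its MG values exceeded all WT values as deposited, an order that scaling cannot undo. Its scarce copy Rab2b had 2.201, 4.02 and 4.16 FPKM in WT, 0, 0 and 3.32 in MG, set against 0, 1.09 and 0.676 in MZ. MZ lay below WT without overlap for Rab2b under either scaling, on about 17 WT and 4 MZ fragments. It passed the filter only through WT, so no test is given, and Tox4 overlaps it on the other strand.

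Rab1, which starts traffic from the endoplasmic reticulum, had 11.5, 6.71 and 6.08 FPKM in WT, 16.8, 15.7 and 11.4 in MG, while MZ had 15.1, 10.2 and 11.3. The groups met at about 11 FPKM as deposited, and MG stood above both others when scaled. Against WT the log2 fold change of Rab1 was 0.81 ± 0.31 in MG (adjusted p = 0.210 by limma) and 0.57 ± 0.31 in MZ (adjusted p = 0.789 by limma). Its more abundant copy Rab1b, 85.5% of the set in WT, had means of 52.3 FPKM in WT, 42.9 in MG and 39.6 in MZ. The groups of Rab1b overlapped under either scaling. Its log2 fold change against WT was -0.30 in MG and -0.35 in MZ, or 0.09 and -0.40 when scaled to the same FPKM sum. Rab33b, a Golgi Rab that also binds the autophagy protein Atg16l1, had 1.71, 6.25 and 5.17 FPKM in WT, 15.1, 10.7 and 9.22 in MG, beside 3.31, 5.08 and 6.83 in MZ. Each MG value of Rab33b exceeded each WT and MZ value as deposited, an order that scaling cannot undo, and WT and MZ overlapped. Its log2 fold change was 1.33 ± 0.42 in MG against WT (adjusted p = 0.155 by limma) and 1.08 ± 0.42 for MG against MZ (adjusted p = 0.212 by limma), on about 20 WT, 67 MG and 29 MZ fragments.

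Among the 5 genes of other roles, Rab28, a Rab of cilia and photoreceptors, was listed at 0 in all 3 WT libraries. It had 1.56, 1.20 and 2.60 FPKM in MG and 0, 0 and 1.24 in MZ, about 9 and 2 fragments, so no fold is given against WT. It passed the filter only through MG, so no test is given. MG and MZ overlapped as deposited, and MG lay above MZ without overlap when scaled to the same FPKM sum.

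**Figure D5:**
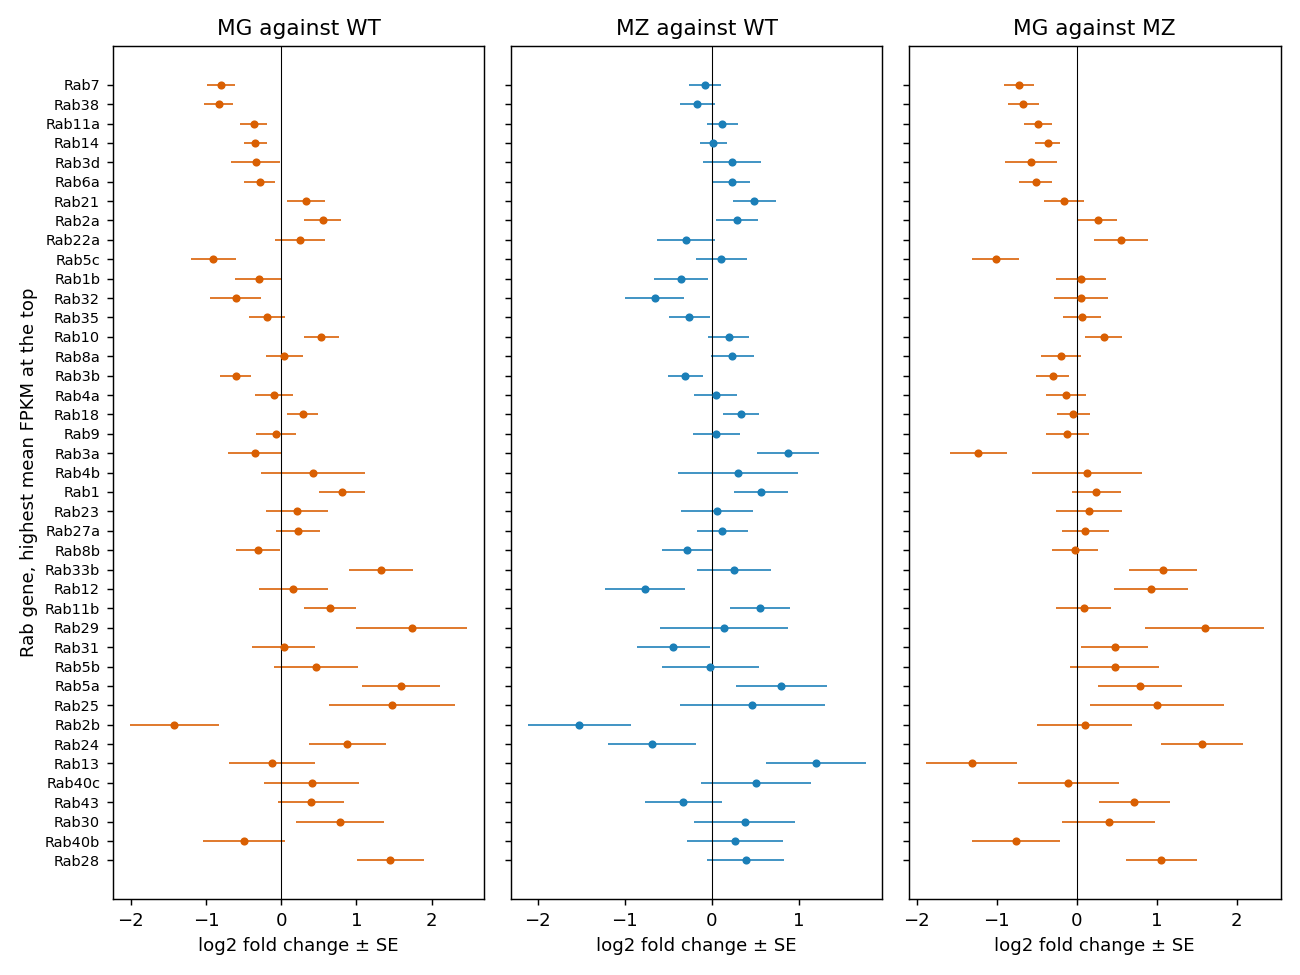
Log2 fold change of FPKM + 1 with its standard error (horizontal axis) for the 41 tested Rab genes, highest mean FPKM at the top, in the 3 comparisons between groups. None passed at an adjusted p under 0.05 by limma; the error bars widen towards the scarce genes at the bottom, and in both MG panels the first 6 genes from the top lie left of 0, of which Rab7 and Rab38 stay below 0 in both panels when the libraries are scaled to the same FPKM sum.

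Groups without overlap were counted over the members. For MG against WT 14 of 41 Rab genes had no overlap (34.1%, against 21.5% of all tested genes), 9 with MG above (11.6% of all genes) and 5 with MG below (9.89%), which became 12 above (21.5% of all genes) and 2 below (3.12%) when scaled to the same FPKM sum. For MZ against WT there were 4 (9.76%, against 12.2%) as deposited and 4 when scaled (9.76%, against 11.8%). For MG against MZ there were 14 (34.1%, against 25.2%), and when scaled 13 with MG above (28.2% of all genes) and 4 with MG below (4.58%). As deposited, 2, 1 and 3 of these members passed the filter only with 1 group. When scaled, those with MG above included Rab24, Rab25 and Rab28 against WT, and Rab24, Rab28 and Rab43 against MZ. These would have failed the filter without the MG libraries, so their place above is no separate result. Of the 17 untested Rab genes, 13 were above 0 in some library. The highest single value among them was 2.39 FPKM, for Rab33a in MZ 1, and Rab39b was the one listed above 0 most often.

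The machinery around the Rab genes was read from lists of 8 prenylation and recycling factors, 48 GEFs, 41 GAPs, 53 effectors, 26 SNARE and fusion genes, 8 subunits of the HOPS and CORVET tethers and 9 exocyst genes. Of their tested members 0 were called in any comparison. Over all tested genes 0.343% were called for MG against WT, 0.037% for MZ against WT and 0.13% for MG against MZ, so counts of 0 are near what the whole table shows. Of the 8 prenylation and recycling factors, all tested, 6 were positive and 2 negative in MG against WT (median 0.51, against 0.04 for all genes), or 7 and 1 when scaled to the same FPKM sum (median 0.76, against 0.36).

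The other lists held medians of 0.28 for the 39 tested GEFs, 0.09 for the 27 tested GAPs, 0.13 for the 40 tested effectors, -0.14 for the 24 tested SNARE and fusion genes, 0.10 for the 6 tested tether subunits and -0.19 for the 7 tested exocyst genes in MG against WT. Scaled to the same FPKM sum, where all genes had 0.36, these medians were 0.57, 0.40, 0.50, 0.23, 0.44 and 0.18. An unadjusted p under 0.05 by limma was found for 3 GEFs (7.69%), 2 GAPs (7.41%), 6 effectors (15.0%) and 1 SNARE gene (4.17%), against 17.7% of all genes. It was found for 1 exocyst gene (14.3%) and 0 tether subunits. Above that share were the prenylation and recycling factors, with 3 of 8 (37.5%). Appl1, an effector of Rab5 on early endosomes, had the smallest p of the effectors, with 11.9, 13.4 and 11.4 FPKM in WT, 20.6, 21.5 and 25.6 in MG, beside 13.9, 11.9 and 13.5 in MZ. Its MG values stood above both other groups, with a log2 fold change of 0.83 ± 0.22 against WT (limma adjusted p = 0.117). Stx5a, the syntaxin of endoplasmic reticulum to Golgi transport, had 456, 329 and 417 FPKM in WT, 305, 267 and 166 in MG, set against 374, 360 and 356 in MZ. For the remaining lists the members with the smallest p in MG against WT were Dennd5a, a GEF, with 0.424 to 0.877 FPKM in WT and 2.07 to 3.01 in MG, Sgsm1, a GAP, with 3.53 to 6.23 and 7.95 to 15.4, Vps8, a CORVET subunit, with 1.17 to 2.57 and 3.14 to 4.30, and Exoc5, an exocyst subunit, with 1.24 to 3.28 and 4.29 to 6.16.

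In the set of the oocyte's actin and vesicle network (Spire1, Spire2, Fmn2, Myo5b, Rab11a and Rab11b) 0 of 6 were called in any comparison. Of all tested genes 0.343% were called for MG against WT, 0.037% for MZ against WT and 0.13% for MG against MZ. At such shares 0 of 6 says little about the set. Rab11a had the smallest p in MG against WT (limma adjusted p = 0.321). In MZ all 3 values of Spire1, an actin nucleator carried on Rab11a vesicles, were above those of the other groups, at 187, 209 and 201 FPKM beside 143, 102 and 127 in WT and 117, 134 and 112 in MG. It was chosen after its values were seen, and its limma adjusted p was 0.575 for MZ against WT and 0.084 for MG against MZ.

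The authors' deposited table gave a q under 0.05 to some Rab genes that did not pass the limma test. For MG against WT the authors' deposited table lists 3 Rab genes, Rab38 (q = 0.0108), Rab5c (q = 0.0138) and Rab7 (q = 0.0240), where 4.13% of the tested genes had a q under 0.05. For MG against MZ the authors' deposited table lists 5, Rab5c (q = 0.000639), Rab7 (q = 0.00449), Rab38 (q = 0.00600), Rab3a (q = 0.0182) and Rab11a (q = 0.0487), against 9.05% of the tested genes. For MZ against WT only Rab32 had such a q in the authors' deposited table (q = 0.0491, against 0.787%). In each of the 3 comparisons 38 of the 58 Rab genes have a q of 1 in the authors' deposited table. Rab1, Rab5a, Rab28 and Rab33b are among them, and their deposited p-values stand at the same ceiling. Such a value may mark a gene that was not tested, so it is not read as no change.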

How the data were processed

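RNA of 9 libraries was amplified by Smart-seq2 and sequenced as paired 150 bp reads, per the labels' protocols and the series design. Reads were aligned to mm10 with TopHat2 2.0.13, and FPKM came from Cufflinks 2.2.1, per the submitters' processing notes. The authors deposited 1 FPKM value for each gene in each library. The p-value and q-value columns of the authors' deposited table come from Cuffdiff, per the series design. Of 24255 rows, 27 with a symbol turned into a date were left out.

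FPKM are not counts, so log2(FPKM + 1) was fitted with limma 3.58.1 in R 4.3.3 (variance trend, all 9 libraries in 1 fit, 6 residual degrees of freedom, two-sided tests, Benjamini-Hochberg adjustment) on genes of at least 1 FPKM in at least 3 libraries. Fold changes on that scale understate those of low genes. The steps were tested on simulated data. Fragment numbers use the longest annotated transcript, are approximate, and cover counting error only. A value of 0 FPKM may stand for an estimate that failed.

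The Rab genes, the role lists and the alternatives were chosen with earlier results of these data known. Rab genes named with every library are, per comparison, the 4 of smallest p in each direction, the 8 highest in mean, and Rab11a, Rab11b, Rab27a, Rab3a, Rab5a, Rab7, Rab8a, Rab10 and Rab35. For other lists it is the member with the smallest p in MG against WT, of which 1 is not reported here. Genes overlapping a second gene are uncertain. In bulk oocyte RNA, fewer cells of a type and less RNA per cell cannot be told apart.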

Additional observations from a re-analysis of the deposited data

How the results depend on the processing

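Alternatives were pseudocounts of 0.1 and 0.5, other filters, 3 scalings, no variance trend, a fit of only the compared groups, a replicate block, and the omission of each library in turn, 19 in all. The count of Rab genes called was 0 in each comparison under all 19, while the count over all genes ranged from 3 to 65 for MG against WT, 0 to 7 for MZ against WT and 0 to 214 for MG against MZ. No Rab fold change given with a standard error changed sign or reached an adjusted p under 0.05 by limma, while Rab11a and Rab14 in MG against WT were 0.02 and 0.05 when scaled to the same FPKM sum and negative as deposited. The median Rab log2 fold change of MG against WT, 0.16, was 0.0359 with no filter, -0.0153 with a filter of 5 FPKM, 0.0762 with quantile normalization and 0.51 when scaled to the same FPKM sum, and 0.0372 to 0.166 when 1 library was left out. For MG against MZ it was 0.48 when scaled to the same FPKM sum and -0.0325 to 0.113 with 1 library left out, and for MZ against WT 0.05 to 0.18. The replicate numbers did not pair the libraries (correlations of same-numbered libraries from -0.07 to 0.07), and with the replicate block the calls stayed at 0. The medians of 0.16, 0.12 and 0.07 cannot move under that block, which is balanced over the groups. Fold changes likewise cannot move without the variance trend or with only the compared groups fitted. Nor can they when a library of the group not compared is left out. For such settings an unchanged sign is no separate result. Counts at an unadjusted p under 0.05 by limma, an alternative chosen after seeing the data, were 8 to 13, 1 to 5 and 5 to 12 in the same order of comparisons as the calls. As shares of the tested Rab genes they were 20% to 31.7%, 2.44% to 12.2% and 12.2% to 30%. The shares of all tested genes were 13.8% to 21.5%, 4.84% to 10% and 13.4% to 24.5%. A pseudocount of 0.1 moved the fold changes of Rab genes listed at 0 in some libraries by more than 1.5 times, as for Rab5a in MG against WT (2.79). Low depth limits the Rab genes of a few FPKM.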
